A study of Mus musculus with 3 samples.

Results

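Potassium channel subunit genes were taken as the array spots whose gene symbol begins with Kcn, grouped by the subfamily prefix of the symbol. The rule found 71 spots of 64 genes among 21761 gene probes, each probe being the mean of the spots that share an identifier and a description. The rule uses names only and no measured value. RNA came from N1E-115 cells, a mouse neuroblastoma line with neuronal properties, transfected with polyethylenimine (PEI). Control cells received the plasmid pEGFP-C1, which encodes EGFP, and the others received pEGFP-NaV1.2CT-Flag, which encodes EGFP joined to a C-terminal stretch (229 residues) of NaV1.2, a neuronal sodium channel of the mouse, called NaV1.2CT below. Both groups got 2 µg of plasmid 24 h after plating, and RNA was taken 48 h after transfection, with RNA of 3 dishes pooled. Each of 3 spotted arrays carried both RNAs, control RNA in Alexa555 and NaV1.2CT RNA in Alexa647, and 10 µg of RNA was labelled. The labels give 1 array at 5 mM glucose and 2 arrays at 20 mM glucose, although the medium listed for growing the cells is a low-glucose one in all samples, so the 20 mM level rests on the other labels. Both groups on an array thus shared the medium, the transfection and EGFP itself. The promoter that drives the fusion and the share of cells that took up plasmid are not given in the sources used here.

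Potassium channels let potassium leave the cell and so set the resting potential, end action potentials and limit repetitive firing. Pore-forming subunits fall into voltage-gated, calcium-activated, inwardly rectifying and leak (tandem pore) families, and auxiliary subunits alter how the pores open or reach the membrane. In neuroblastoma cells they oppose the sodium channels that carry the upstroke of the action potential. The C-terminus of NaV1.2 is itself a docking site for calmodulin and for fibroblast growth factor homologous factors.

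Each value below is a log2 ratio of NaV1.2CT over EGFP after intensity and print-block effects were removed, negative where the RNA was lower with NaV1.2CT. Where 3 values are listed, they are the array at 5 mM glucose, then replicate 1 and replicate 2 at 20 mM. A ratio compares pools of cells, so fewer cells of a kind and less RNA per cell cannot be told apart. The dyes were never swapped, so a dye effect on a spot and the plasmid cannot be told apart. The labels do not say whether different cultures fed the arrays, and the p-values therefore describe only how the arrays varied, which may be technical. Brightness followed the gene names on these arrays only weakly, so a gene name stands here for the spot that carries it.

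Median raw intensity over gene spots was between 1106 and 1706 in the EGFP channel and between 890 and 1354 in the NaV1.2CT channel, highest on the 5 mM array in both. Of the 71 potassium channel spots, 69 exceeded the empty limit on all 3 arrays, that is, in both channels they were above the 95th percentile of the empty spots, against 89.7% of all probes. The exceptions were Kcnip4, whose product modulates A-type channels, and a spot of a 5′ exon of Kcnq1, which were below the limit on every array. No potassium channel spot was saturated. All 13 probes for the neuroblastoma markers were above the empty limit, but so were 9 of 10 glial, 6 of 9 fibroblast and all 7 blood, liver or muscle probes, so brightness did not set this cell type apart. Of the marker lists, only 1 probe passed a test described below, Nefm, a neurofilament subunit, which rose in NaV1.2CT (mean 0.16 on all 3 arrays, limma adjusted p = 0.0461, where 1.17% of all probes passed as higher). At 20 mM alone it did not pass (mean 0.15, limma adjusted p = 0.106), and the median of the 13 probes for neuroblastoma markers was 0.0026 on all arrays.

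Differences between plasmids were small throughout the family. The mean over 3 arrays ran from -0.21 to 0.13, and 53 of 71 spots lay within 0.1 of 0. At 20 mM glucose 1 of 71 spots passed limma's moderated test at an adjusted p of 0.05 (Benjamini-Hochberg over all probes, as in all tests below), and it was lower in NaV1.2CT. The same test called 2.11% of all probes, 1.42% lower and 0.689% higher. Over all 3 arrays 3 of 71 spots passed, all lower, against 3.85% of all probes, of which 2.68% were lower and 1.17% higher. The share of potassium channel spots called, 4.23%, was thus near that of all probes. No potassium channel spot rose in either comparison. The 3 that fell were Kcne2, Kcnj1 and Kcnd2, an auxiliary subunit, an inward rectifier and an A-type channel.

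Kcne2 encodes a single-span auxiliary subunit that alters several voltage-gated channels and is best known from stomach, thyroid and heart. The spot is described as a complementary DNA clone from adult male stomach. Its log2 ratios were -0.084, -0.28 and -0.28. The values at 20 mM glucose lay next to each other and the 5 mM value was closest to 0. Kcne2 fell by 0.28 at 20 mM (SD 0.0012, n = 2, limma adjusted p = 0.0252), a level 17.5% lower in NaV1.2CT than in EGFP. Over all 3 arrays it fell by 0.21 (SD 0.11, n = 3, limma adjusted p = 0.0398). The spot was dimmer at 20 mM glucose, with 275 and 258 units over background in the EGFP channel against 929 at 5 mM. In the NaV1.2CT channel it gave 687, 151 and 119. With plain background subtraction in place of normexp the value at 20 mM was -0.49 and the call was lost (limma adjusted p = 0.133), and with the authors' deposited ratios it was -0.44 (limma adjusted p = 0.0980). The 3-array call was lost without either 20 mM replicate (limma adjusted p = 0.0928 and 0.0839). It was also lost with a normexp offset of 10 (limma adjusted p = 0.0512) and loess on the deposited net intensities (limma adjusted p = 0.0502). Plain subtraction (limma adjusted p = 0.202) and the deposited ratios (limma adjusted p = 0.204) ended it too. The spot was dim, with a mean log2 intensity of 8.74 over channels and arrays. Among probes under 9 on that measure, 2.93% passed as lower at 20 mM and 5.20% on all arrays. Over all probes these shares were 1.42% and 2.68%. With the dimmest 25% of probes left out, Kcne2 was not among the 60 potassium channel spots tested. Only the Kcnd1 mRNA spot then passed at 20 mM, where 3.02% of all probes did. On all arrays Kcnd2 and Kcnj1 passed, where 3.83% of all probes did.

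Kcnj1 encodes an inward rectifier that returns potassium to the lumen in the kidney tubule. Its spot gave -0.28, -0.14 and -0.22, so all 3 arrays lay below 0 and the 5 mM value was the lowest. Kcnj1 fell by 0.21 over all 3 arrays (SD 0.069, n = 3, limma adjusted p = 0.0295), a level 13.7% lower. At 20 mM glucose alone the mean was -0.18 and did not pass (SD 0.055, n = 2, limma adjusted p = 0.0686), which is also the value without the 5 mM array. In the EGFP channel the spot gave 2879, 4470 and 2883 units over background, and in the NaV1.2CT channel 1970, 3374 and 1991. Both channels were brightest on replicate 1 at 20 mM.

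Kcnd2 encodes a pore subunit of the rapidly inactivating A-type current of neuronal dendrites. The spot gave -0.23, -0.16 and -0.15, the narrowest spread of the 3. Kcnd2 fell by 0.18 over all 3 arrays (SD 0.041, n = 3, limma adjusted p = 0.0331), a level 11.9% lower. At 20 mM alone its mean was -0.16 (SD 0.0087, n = 2, limma adjusted p = 0.0804). The 3-array call was also lost without replicate 1 at 20 mM (limma adjusted p = 0.0623). In the EGFP channel it gave 1122, 575 and 395 units over background, and in the NaV1.2CT channel 693, 348 and 229. For Kcnj1 and Kcnd2 too, plain background subtraction and the deposited ratios ended the 3-array call, with limma adjusted p between 0.138 and 0.153.

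**Figure D1:**
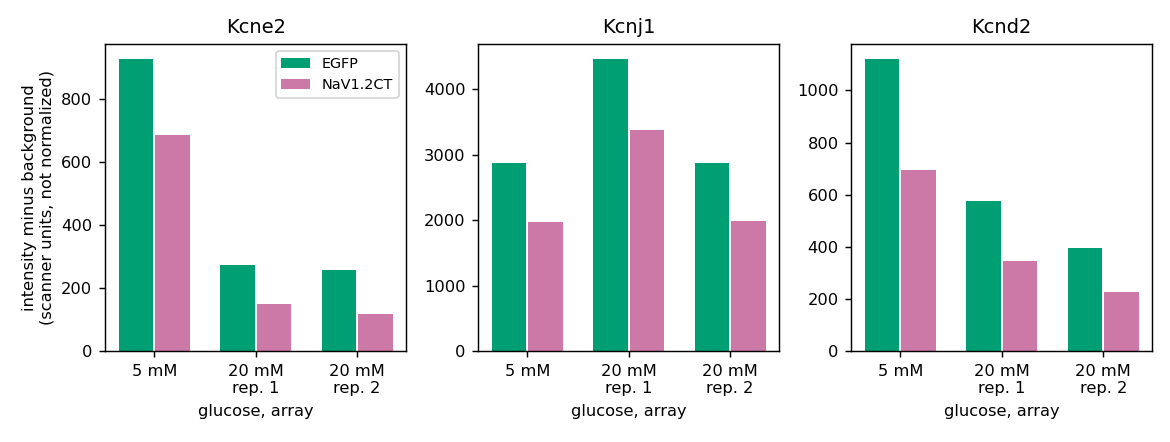
Intensity minus local background (scanner units, not normalized) of the Kcne2, Kcnj1 and Kcnd2 spots in the EGFP (green) and NaV1.2CT (pink) channels, 1 pair of bars per array. The NaV1.2CT bar is the lower of each pair, but that channel was dimmer over the whole array, so the normalized log2 ratios in the text carry the comparison.

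The 250 bases upstream of the annotated starts of these 3 genes are shown because they are the only family members that passed, from RefSeq on GRCm38.p6. Capitals mark matches on either strand to GGGCGG (the GC box), CCAAT (the CCAAT box), TATAAA (the TATA box) or TGACGTCA (the cyclic AMP response element), motifs that do not overlap one another here. Kcne2 has 2 listed starts, at chr16:92292139-92292388 and chr16:92295366-92295615, Kcnj1 lies at chr9:32393735-32393984 and Kcnd2 at chr6:21215096-21215345, all on the plus strand.
Kcne2, upstream start: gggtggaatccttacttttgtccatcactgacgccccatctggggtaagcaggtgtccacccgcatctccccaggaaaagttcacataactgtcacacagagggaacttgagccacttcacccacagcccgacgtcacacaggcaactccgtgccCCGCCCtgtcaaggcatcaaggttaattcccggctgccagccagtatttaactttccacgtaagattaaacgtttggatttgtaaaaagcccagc
Kcne2, downstream start: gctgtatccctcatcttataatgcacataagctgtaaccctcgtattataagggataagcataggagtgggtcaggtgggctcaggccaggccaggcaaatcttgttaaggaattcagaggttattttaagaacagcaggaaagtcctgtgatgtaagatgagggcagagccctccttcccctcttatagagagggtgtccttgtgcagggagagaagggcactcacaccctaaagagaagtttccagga
Kcnj1: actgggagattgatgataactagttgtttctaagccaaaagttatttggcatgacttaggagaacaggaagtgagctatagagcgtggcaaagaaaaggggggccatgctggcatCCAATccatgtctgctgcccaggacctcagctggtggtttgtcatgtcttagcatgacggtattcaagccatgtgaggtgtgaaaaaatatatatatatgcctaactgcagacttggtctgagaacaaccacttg
Kcnd2: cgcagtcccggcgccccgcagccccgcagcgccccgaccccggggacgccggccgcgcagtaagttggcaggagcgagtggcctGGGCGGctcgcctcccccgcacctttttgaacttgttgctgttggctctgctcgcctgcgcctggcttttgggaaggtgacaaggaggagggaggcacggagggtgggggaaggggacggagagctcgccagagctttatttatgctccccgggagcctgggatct
The upstream Kcne2 window and the Kcnd2 window hold 1 GC box each, the Kcnj1 window holds 1 CCAAT, and the downstream Kcne2 window holds none of the 4 motifs. Among 32851 such windows of all genes, 32.7% hold a GC box, 33.8% a CCAAT, 12.4% a TATA box and 1.5% a cyclic AMP response element. A window was listed for 49 of the 64 family genes, 71 windows in all, of which 42.3% hold a GC box, 31.0% a CCAAT and 2.8% a TATA box. No motif is common to the windows of all 3 genes, and the windows differ in base composition, from 44.8% G or C in Kcnj1 to 68.8% in Kcnd2.

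The voltage-gated pore subunits outside Kcnd showed no call. Among the 6 Kcna spots, delayed rectifier and low-threshold channels, the lowest was Kcna6 at -0.14, -0.043 and -0.29 and the highest Kcna2 at -0.035, 0.011 and 0.16. Kcna6 was below 0 on every array, with a mean of -0.16 (SD 0.13, n = 3, limma adjusted p = 0.0923). Kcna1, an axonal channel, gave 0.031, -0.19 and -0.10, and Kcna4, an A-type channel, gave -0.026, -0.095 and -0.13. The Kcna1 values lay on both sides of 0 and the Kcna4 values on the negative side.

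Of the Kcnc genes, whose channels allow fast spiking, Kcnc1 gave 0.071, 0.12 and 0.11, a mean of 0.099 (SD 0.025, n = 3, limma adjusted p = 0.124). It was above 0 on all arrays and did not pass. In Kcnd, the A-type group that holds Kcnd2, Kcnd3 gave 0.017, 0.034 and -0.011, close to 0 throughout. The silent subunits, which open no pore alone but alter other voltage-gated channels, were Kcng4, Kcns1 and Kcnv1. Kcns1 gave -0.19, -0.056 and -0.15 (mean -0.13, SD 0.070, n = 3, limma adjusted p = 0.0841) and Kcnv1 gave 0.013, 0.10 and -0.011.

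Among cytoplasmic beta subunits, which bind Kcna channels, Kcnab2 gave -0.018, -0.15 and -0.25 and Kcnab3 0.11, 0.12 and 0.035. Kcnab2 had a mean of -0.20 at 20 mM glucose and missed the threshold there (SD 0.070, n = 2, limma adjusted p = 0.0553). The Kcnip genes encode calcium-binding partners of Kcnd channels. Kcnip2 gave -0.038, -0.071 and -0.060 and Kcnip3, which also acts as a transcriptional repressor, gave -0.040, -0.21 and -0.030. All 6 of these values were below 0. In Kcne, beside Kcne2, the highest spot was Kcne1, partner of Kcnq1 in the slow cardiac current, at 0.0091, 0.079 and 0.0013. Kcne3, an intestinal partner of Kcnq1 singled out after its values were seen, gave -0.085, -0.18 and -0.18 and missed the threshold in both comparisons (limma adjusted p = 0.0579 at 20 mM and 0.0566 on all arrays). With each print position centred, which is treated below, its limma adjusted p was 0.0984 at 20 mM and 0.108 on all arrays.

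The Kcnh genes, ether-a-go-go channels, included the narrowest subfamily range, -0.062 to 0.076 over 5 spots, among the subfamilies with over 4 spots. Kcnh1 gave -0.070, -0.042 and -0.075, Kcnh2, which carries the rapid repolarising current of heart, gave -0.045, -0.059 and -0.026, and Kcnh3 gave 0.10, 0.051 and 0.076. Each kept its sign on all 3 arrays and none passed. Of the Kcnq genes, Kcnq5, a pore of the M-current that acetylcholine suppresses, gave -0.37, -0.011 and -0.095. Kcnq5 was the lowest of the 71 spots on the 5 mM array and near 0 on replicate 1 at 20 mM.

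The calcium-activated channels showed no call, and neither did Kcnu1, which is given apart from them. The small-conductance genes, which shape the afterhyperpolarisation, gave 0.0011, 0.058 and 0.10 for Kcnn1, -0.14, -0.0065 and -0.11 for Kcnn2 and -0.15, -0.11 and -0.037 for Kcnn3. Kcnn1 was above 0 and the others below 0 on all arrays. Kcnmb1, the large-conductance channel's smooth muscle beta subunit, gave 0.084, 0.12 and 0.13, the highest mean of its group at 0.11 (SD 0.022, n = 3, limma adjusted p = 0.0986). Kcnu1, the alkali-activated channel of sperm, gave -0.11, 0.025 and 0.25 and changed sign between arrays.

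The 14 inward rectifier spots were led downward by Kcnj1. The transport rectifiers Kcnj1, Kcnj15 and Kcnj16 were the only group of Kcnj genes in which every spot was below 0 on every array, with a median of -0.10. Their spots are printed at block positions 46, 83 and 45, which are treated below. With each print position centred, Kcnj15 gave -0.014, -0.025 and 0.060, so the shared sign did not hold. Kcnj11, the pore of the ATP-sensitive channel singled out after its values were seen, gave -0.14, -0.14 and -0.13, and its mean of -0.14 missed the threshold (SD 0.0055, n = 3, limma adjusted p = 0.0547). With each print position centred, Kcnj11 gave -0.13, -0.11 and -0.050, a mean of -0.098 (SD 0.042, n = 3, limma adjusted p = 0.137). Its group partner Kcnj8 gave -0.11, 0.067 and 0.041. The G protein-gated rectifiers, Kcnj3, Kcnj5, Kcnj6 and Kcnj9, had a median of 0.0017 over 6 spots, with 1 spot above and 1 below 0 on all arrays. Of the 8 leak channel spots, Kcnk4 was lowest at -0.087, -0.14 and -0.20 and Kcnk10 highest at 0.11, 0.075 and 0.060, both mechanically and lipid-gated channels. Kcnk2, of the same subgroup, gave 0.040, -0.068 and -0.26. Kcnk4 had a mean of -0.14 (SD 0.056, n = 3, limma adjusted p = 0.0654), and of -0.091 with each print position centred (limma adjusted p = 0.162).

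**Figure D2:**
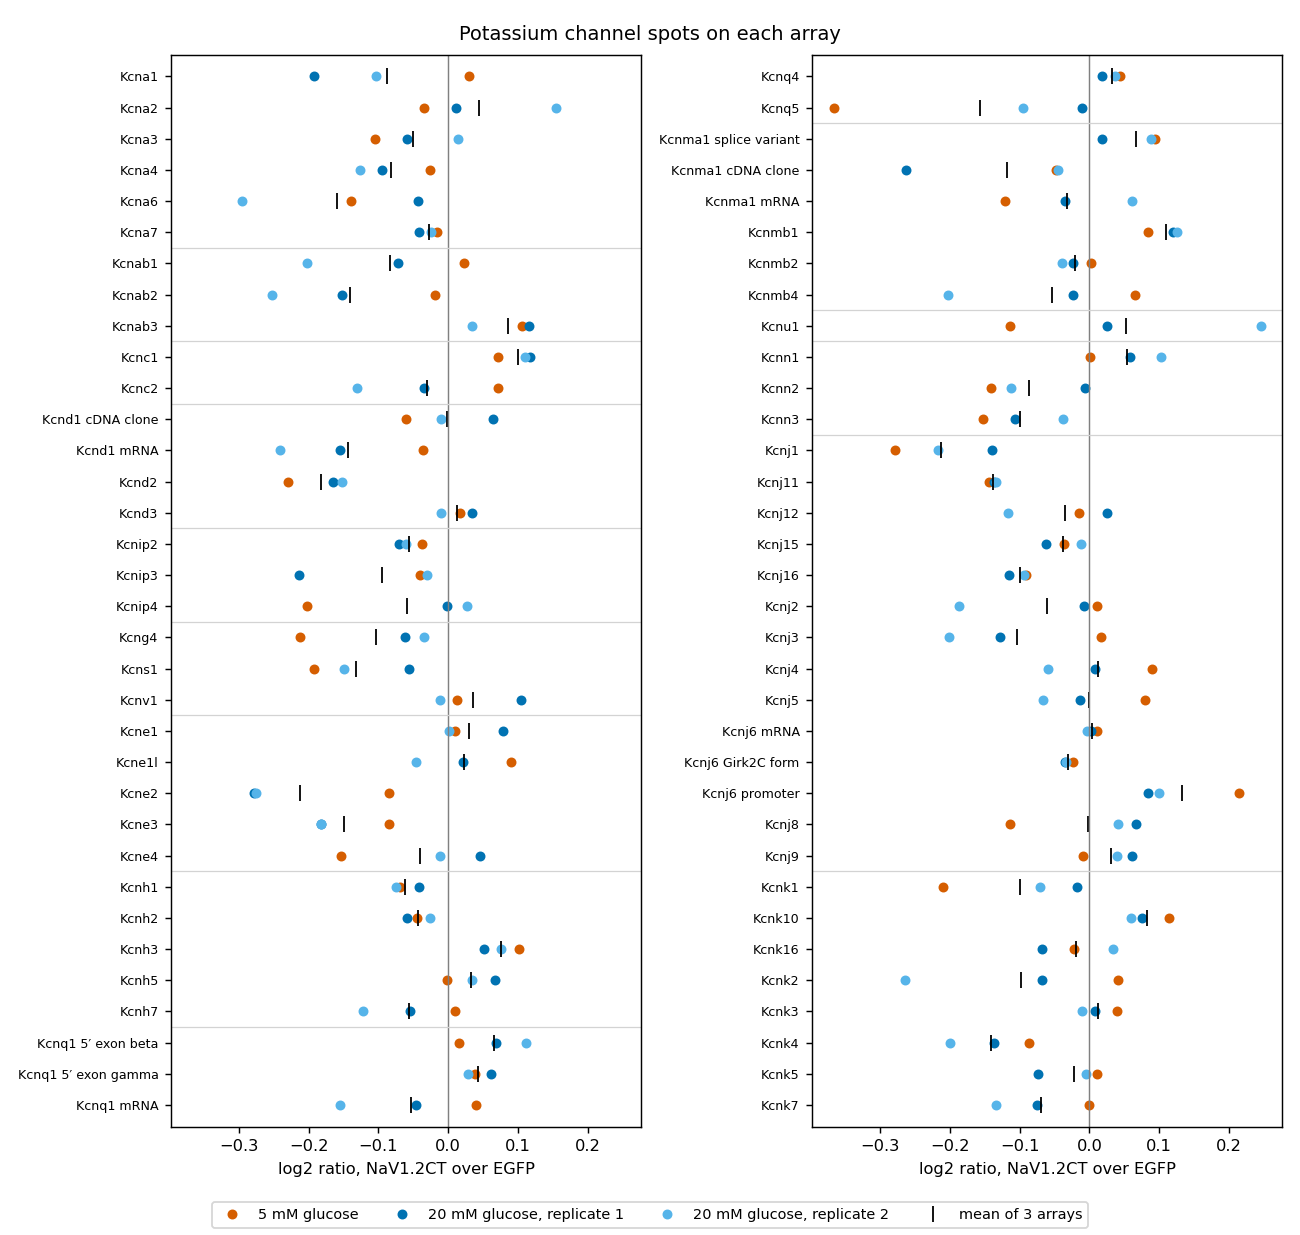
Log2 ratio of NaV1.2CT over EGFP (horizontal axis) of 68 of the 71 potassium channel spots, with the array at 5 mM glucose in orange, the 20 mM replicates in dark and light blue and the mean of 3 arrays as a black bar. Grey lines part the subfamilies. Kcne2, Kcnj1 and Kcnd2 have the lowest means, and the highest mean is 0.13, of the Kcnj6 promoter spot.

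The 4 genes with several spots did not give a single answer each. The Kcnd1 mRNA spot gave -0.036, -0.16 and -0.24 and the complementary DNA clone -0.060, 0.064 and -0.011. At 20 mM glucose the former had a mean of -0.20 (limma adjusted p = 0.0553) and the latter of 0.027 (limma adjusted p = 0.755). For Kcnj6, a G protein-gated rectifier of neurons, the mRNA spot gave 0.011, 0.0025 and -0.0034 and the spot of the Girk2C form -0.023, -0.035 and -0.033, all near 0. The third Kcnj6 spot is described as the gene's promoter region, which is not part of the mRNA, and it had the highest mean of all 71 spots. It gave 0.21, 0.084 and 0.10 (mean 0.13, SD 0.071, n = 3, limma adjusted p = 0.0849) and read 8087, 7489 and 7740 units over background in the EGFP channel.

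Kcnma1, the large-conductance pore, had a mean of 0.067 on its splice variant spot, -0.12 on its clone and -0.032 on its mRNA spot. By array these were 0.094, 0.018 and 0.089 on the variant, -0.047, -0.26 and -0.044 on the clone and -0.12, -0.035 and 0.061 on the mRNA spot. Kcnq1, the pore of the slow cardiac current, had 0.016, 0.069 and 0.11 on a spot of 5′ exon beta and 0.041, -0.046 and -0.16 on its mRNA spot. Of these 2 spots only that of exon beta kept its sign on all arrays. Which spot best reports each gene was not tested.

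**Figure D3:**
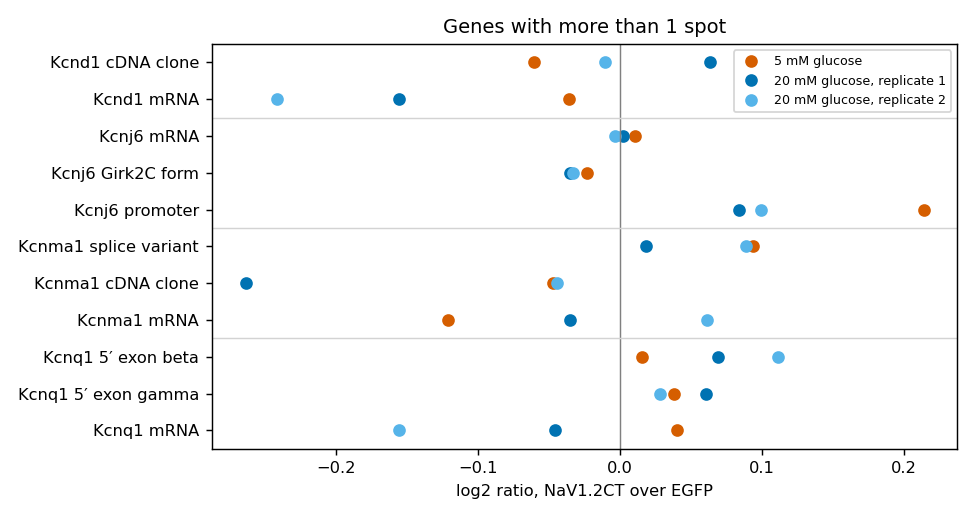
Log2 ratio of NaV1.2CT over EGFP (horizontal axis) for the 11 spots of the 4 genes with more than 1 spot, with a point per array (orange for 5 mM glucose, blues for 20 mM). The spots of Kcnma1 and Kcnj6 spread over both sides of 0, and the 2 Kcnd1 spots differ at 20 mM, where their means are -0.20 and 0.027.

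As a group the spots lay slightly below 0, with a median of -0.040 at 20 mM and -0.040 on all arrays under print-block loess, a direction that turned to 0.0021 at 20 mM and shrank to -0.0038 on all arrays once each print position was centred. The centre of a position was the median of all gene probes there, the family's own spots included. The median of all probes was -0.0025 at 20 mM and -0.0034 on all arrays. By array the potassium channel medians were -0.015, -0.034 and -0.037. On all 3 arrays 27 spots were below 0, 12 above 0 and 32 of mixed sign, so 54.9% kept their sign against 46.9% of all probes. At an unadjusted p of 0.05, 21 spots were lower at 20 mM and 3 higher, 29.6% and 4.23%, against 13.5% and 8.71% of all probes. On all arrays 26.8% were lower and 7.04% higher by that measure, against 14.7% and 9.31% of all probes. With each print position centred, the unadjusted count at 20 mM was 21 spots, of which 12 were lower, where 21.8% of all probes passed, and on all arrays 24, of which 14 were lower, where 23.1% passed.

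The offset moved with where the spots were printed. Each array has 48 print blocks of 484 positions, and 49 of the 71 spots sit at only 6 of these positions (45, 46, 83, 84, 87 and 88), those with 6 or more of the family, a grouping made after the values were seen. The 235 other gene probes at those 6 positions, whose symbols do not begin with Kcn, had a median of -0.049 over 3 arrays. The 49 potassium channel spots there had -0.053. Any channel spots there that the symbol rule missed were not taken out of the 235. The 22 potassium channel spots printed elsewhere had a median of 0.0098, with 11 above 0, against 12 of the 49. Print position explained 5.81%, 6.65% and 12.8% of the variance of the log ratio over all probes on the 3 arrays. With 484 positions some share would arise even without any effect of position, and it was not taken off. In the plot of spots against position, a potassium channel spot was above the median of its position's other probes in 37 of 71 cases. Among those 235 other probes 5.11% passed as lower on all arrays and 5.53% at 20 mM, both above the shares over all probes.

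Kcnj1 and Kcnd2 are at positions 46 and 45, and Kcne2 is at position 305, where it is the only family member. The median of a position was taken over all gene probes there, the family's own spots included, so those spots partly set the centre. Centring every position on its own median, an alternative chosen after the data were seen, left Kcne2 at -0.26 at 20 mM (limma adjusted p = 0.0046) and -0.20 on all arrays (limma adjusted p = 0.0462). It left Kcnj1 at -0.17 (limma adjusted p = 0.0523) and Kcnd2 at -0.13 (limma adjusted p = 0.0671), neither of which passed. Under it Kcnmb1 passed as higher at 20 mM, at 0.18 (limma adjusted p = 0.0310), but not on all arrays, at 0.15 (limma adjusted p = 0.0575). In either direction 5.35% of all probes passed at 20 mM under centring, against 2.11% without it. On all arrays these shares were 3.01% and 3.85%. Of 16 pairs of potassium channel spots printed side by side, 12 had means of the same sign. Kcnj1 was in 1 of the other pairs, beside Kcnab3, whose mean was 0.085. The part of printing in these differences was not tested further.

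**Figure D4:**
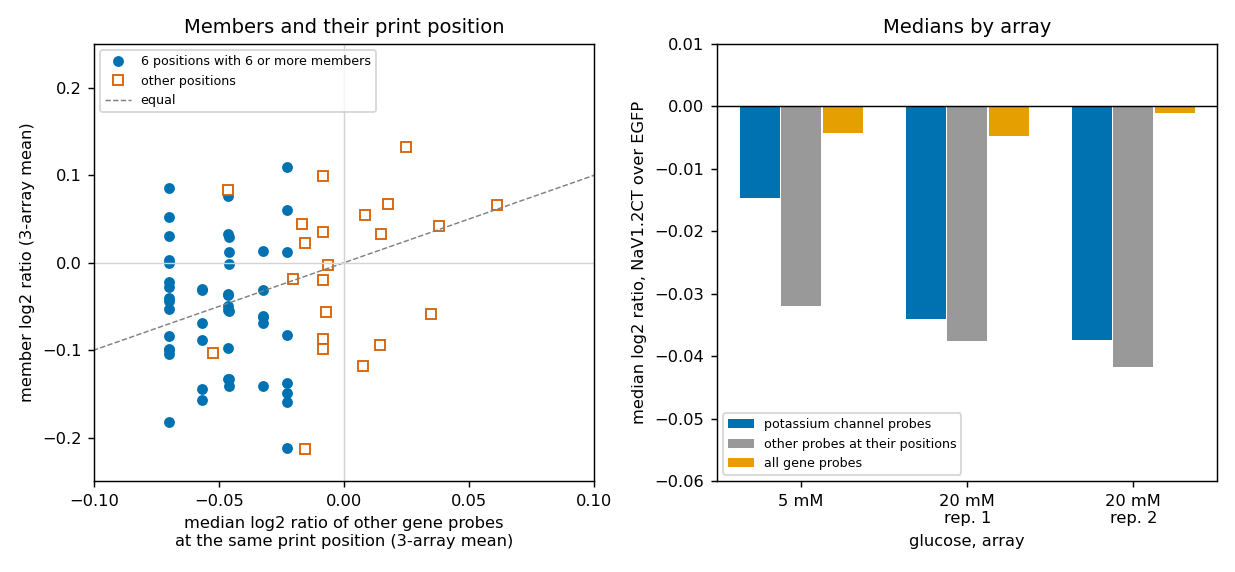
Left, mean log2 ratio over 3 arrays of each potassium channel spot against the median of the other gene probes printed at the same block position (dashed line, equality), with blue circles for the 6 positions that hold 49 of the 71 spots and open orange squares for the rest. Right, median log2 ratio per array of the potassium channel spots (blue), other probes at their positions (grey) and all gene probes (orange): the blue bars, -0.015, -0.034 and -0.037, lie nearer the grey than the orange bars on both 20 mM arrays.

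The design also allows the plasmid difference to be compared between glucose levels, though the glucose level and the numbered series of the arrays cannot be told apart, and the lone 5 mM array is assumed to vary like the others. No potassium channel spot passed (limma, 5 mM minus 20 mM), as against 0.0276% of all probes (0.00919% lower and 0.0184% higher). At an unadjusted p of 0.05, 12 of 71 spots differed, 7 lower and 5 higher at 5 mM, which is 16.9% against 7.5% of all probes (4.16% lower and 3.34% higher). With each print position centred, 10 of 71 spots differed, 7 of them lower, against 8.35% of all probes. Without that centring Kcnq5 differed most, at -0.31 (SE 0.075, 95% interval -0.48 to -0.14, limma adjusted p = 0.438). Its spot was also much brighter at 5 mM than at 20 mM, at 17705 units over background in the EGFP channel against 3372 and 3601. Kcne2 went the other way, at 0.19 (SE 0.070, 95% interval 0.032 to 0.35, limma adjusted p = 0.616). For Kcnj1 the difference was -0.10 (95% interval -0.27 to 0.069) and for Kcnd2 -0.071 (95% interval -0.23 to 0.090). The median half-width of these intervals over the family was 0.17, so differences smaller than that could not be resolved for most spots. The intervals are not adjusted for the number of probes, and larger differences, such as that of Kcnq5, did not pass either.

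**Figure D5:**
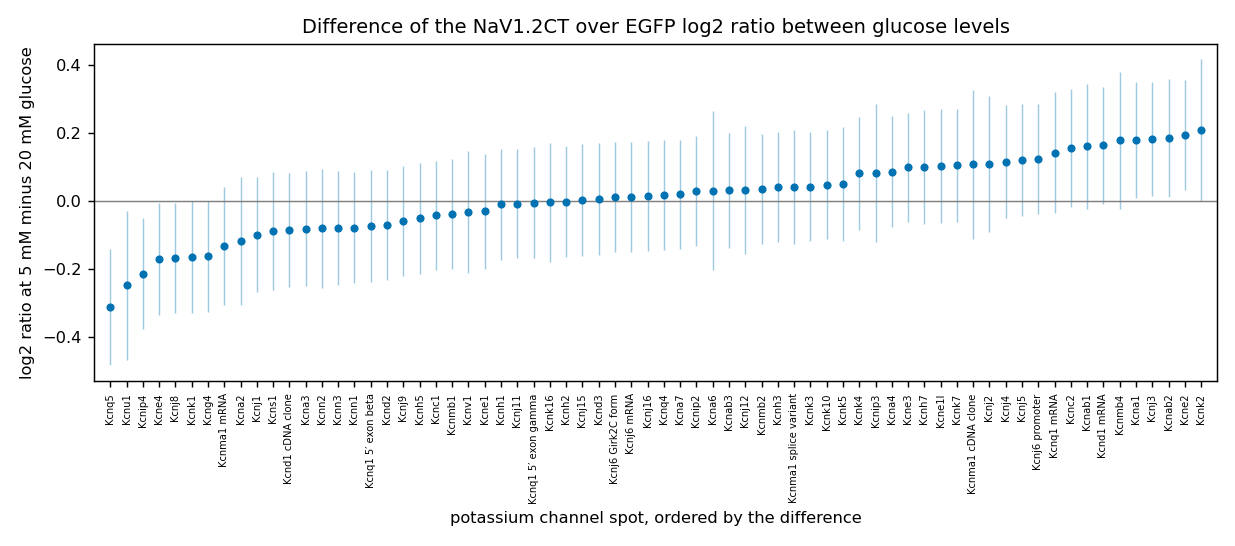
Difference of the log2 ratio of NaV1.2CT over EGFP between 5 mM and 20 mM glucose (vertical axis) for 68 of the 71 potassium channel spots, ordered by size. Bars are 95% intervals from limma, not adjusted for the number of probes. Kcnq5 lies lowest at -0.31, and 11 of the intervals drawn do not cover 0.

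The arrays agreed moderately over the family. Across the 71 spots Pearson's r between arrays was 0.38 for 5 mM against replicate 1, 0.24 for 5 mM against replicate 2 and 0.64 between the 20 mM replicates. Over all probes these were 0.46, 0.32 and 0.48. These are descriptions over spots that share arrays, dyes and print positions, not tests. Brightness and mean log2 ratio were weakly related over the 71 spots, with r = 0.14. Under loess over the whole array or median centring, 6 named spots changed sign and passed in at least 1 comparison: Kcnd3, Kcnh1, Kcnip2, Kcnn1 and the mRNA spots of Kcnj6 and Kcnma1.

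Proteins that work with potassium channels but carry other names were also examined, such as the sulfonylurea receptors Abcc8 and Abcc9, the Kcnd partner Dpp6, calmodulins, the fibroblast growth factor homologous factors, pacemaker channels (Hcn) and scaffolds (Dlg, Ank3, Akap). Of 30 listed genes 25 were on the array, with 32 probes. None of the 32 passed in any of the 3 comparisons, against 2.11%, 3.85% and 0.0276% of all probes, and their median over 3 arrays was 0.021. At an unadjusted limma p of 0.05, 6 of the 32 passed at 20 mM, 10 on all arrays and 1 between glucose levels, in either direction, where 22.2%, 24% and 7.5% of all probes did.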

How the data were processed

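RNA of N1E-115 cells was measured on 3 spotted arrays with 2 colours. Raw and background intensity per spot and channel are the values used; per the file headers, the authors deposited mean values of both, with net intensities, a ratio of EGFP over NaV1.2CT and a z-score. No source used here gives how the score was made. The deposited ratio and the deposited score served as alternatives only.

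Intensities were corrected with limma normexp (offset 50), the log2 ratio (NaV1.2CT over EGFP) was normalized by loess within each print block (span 0.3, 4 iterations, empty spots at weight 0), and spots of the same identifier and description were averaged, giving 21761 probes from 21766 gene spots. No filter on intensity was used. limma 3.58.1 in R 4.3.3 (lmFit, eBayes, two-sided) was fitted on all probes for the mean of the 2 arrays at 20 mM glucose, the mean of all 3 arrays, and the 5 mM array minus the 20 mM mean. The residual degrees of freedom were 1, 2 and 1. Adjusted p-values are Benjamini-Hochberg over all probes, with a threshold of 0.05. The steps were tested on simulated data, where fitted effects were close to those set, small changes were often missed and calls on unchanged probes were more frequent than the threshold implies. The number of arrays limits the precision, and spot intensities give no counting error.

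Spots are named by the symbols in the files. The members, the lists and the print-block loess were chosen with earlier results of these data known. Named spots are those past the threshold, the highest and lowest mean of each subfamily, and a list of genes for currents known in neuroblastoma cells, 38 spots in all, of which 3 are counted but not reported here by name. Kcne3, Kcnj8, Kcnj11, Kcnj15, Kcnd1 and the Kcnq1 mRNA spot lie outside this rule and were added after their values were seen. Others outside it, such as Kcnj16, Kcng4 and Kcnip4, are named without log2 ratios of their own, as members of a group or for low signal. Alternatives were other loess fits, median centring, other background corrections, filters on dim spots, an intensity trend, 1 probe per gene, the deposited values, leaving out each array, and 2 added after the data were seen (GAPDH spots at weight 0 and centring of print positions). Sequences are from RefSeq on GRCm38.p6.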

Additional observations from a re-analysis of the deposited data

How the results depend on the processing

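No paired analysis was possible because the glucose groups share only 1 replicate number; the plasmids were already compared within each array. The count of potassium channel spots past the threshold was 1 at 20 mM and 3 on all arrays (all lower). With loess over the whole array it was 30 (8 higher, 22 lower) at 20 mM and 28 (7 higher, 21 lower) on all arrays, where 35.1% and 34.9% of all probes passed. Median centring gave 31 (12 higher, 19 lower) and 31 (10 higher, 21 lower), with 37.3% and 40.4% of all probes passing. These settings leave print-block effects in the log ratios. At 20 mM the count was 5 with a second loess over intensity (4.43% of all probes), 8 with loess on the deposited net intensities (6.92%), 5 over probes above the empty limit (4.07%), 4 with an intensity trend in eBayes (3.49%), 3 with GAPDH spots at weight 0 (3.08%) and 2 with print positions centred (5.35%). On all arrays it was 5 over probes above the empty limit (5.49%), 1 with the deposited z-score, which covers 44 of the 71 spots (4.3%), and 1 with print positions centred (3.01%). Plain background subtraction and the deposited ratios gave 0 in both comparisons by limma. Of all probes only 0.175% and 0.327% passed at 20 mM, and 0.00922% and 0.0184% on all arrays. At an unadjusted p of 0.05, 14 and 16 spots passed at 20 mM and 17 and 17 on all arrays. The share of all probes at that p was not taken under these settings. Under the main processing it was 22.2% at 20 mM and 24% on all arrays, so these counts alone show no excess. Without 1 array in turn the 3-array count ran from 1 to 3, and the passing spots differed. Without the 5 mM array only Kcne2 passed (2.11% of all probes). Without replicate 1 at 20 mM Kcna6, Kcnj1 and Kcnq5 passed (2.16%), and without replicate 2 Kcnd2 and Kcnj1 (3.48%). The difference between glucose levels gave 0 by limma under every setting run, with 3 to 13 spots at an unadjusted p of 0.05. The main processing gave 12 spots there, where 7.5% of all probes passed.

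The median over the 71 spots at 20 mM, -0.040, was -0.052 with loess over the whole array, -0.063 with median centring, -0.034 with a second loess, -0.045 with plain subtraction, -0.043 with an offset of 10, -0.042 above the empty limit and 0.0021, turned in sign, with print positions centred. On all arrays, where it was -0.040, it was -0.0038 with print positions centred. Without an array in turn it ran from -0.037 to -0.034 at 20 mM and from -0.040 to -0.029 on all arrays. Among the 38 named spots, those that turned in sign and passed did so only under whole-array loess, where Kcnd3 was -0.23 at 20 mM and -0.25 on all arrays, the Kcnma1 mRNA spot -0.23 at 20 mM and Kcnn1 -0.13 on all arrays, or under median centring, where Kcnh1 was 0.23 and 0.27, Kcnip2 0.27 and 0.27, the Kcnma1 mRNA spot -0.22 at 20 mM, and Kcnd3 -0.19 and the Kcnj6 mRNA spot -0.17 on all arrays. All but 2 of the 71 spots exceeded the empty limit on every array, so signal over background limits the Kcnip4 spot and the Kcnq1 5′ exon gamma spot.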

Other observations

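The symbol rule missed 5 spots of potassium channel loci, which the files name only in their descriptions or under older symbols. The spot described as Kcna5, a cardiac and vascular delayed rectifier, gave log2 ratios of -0.12 at 5 mM glucose and -0.13 and -0.31 at 20 mM, with a mean of -0.19 (SD 0.11, n = 3, limma adjusted p = 0.0509). It lies beside the Kcnd2 spot. The spot described as Kcns2, a silent subunit, had a mean of -0.10 (SD 0.072, n = 3, limma adjusted p = 0.147), and that described as Kcnj10, a glial inward rectifier, of -0.092 (SD 0.058, n = 3, limma adjusted p = 0.174). Spots that current names assign to the antisense genes Kcnmb4os2 and Kcnd3os had means of -0.10 (limma adjusted p = 0.115) and -0.075 (limma adjusted p = 0.374). None of the 5 passed.

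The deposited z-score had the same sign as the log2 ratio in 62 of 71 potassium channel spots on the 5 mM array and 66 of 71 on replicate 1 at 20 mM. On replicate 2 a z-score was given for 44 of the 71 spots, of which 39 had the same sign.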
